A study of Mus musculus with 28 samples.

Results

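The interleukin receptor chains measured here are 23 assays for 22 genes, out of 648 assays for 584 genes on a mouse inflammation panel read by quantitative PCR. They were chosen by name: every symbol made of Il, a number and r was taken, without the antagonist Il1rn and without Il3ra, Il4ra, Il5ra, Il8ra, Il8rb, Il13ra1 and Il17ra. That exception removed 9 assays. The rule reads the symbol only. The samples were porous polycaprolactone implants from female BALB/c mice, placed subcutaneously, which host immune, stromal and epithelial cells enter and which the labels name a synthetic niche. Mice were either healthy or inoculated with 4T1-luc2-tdTomato, a mouse mammary carcinoma line with luciferase and fluorescent reporters. Scaffolds were taken at day 7 (3 healthy and 3 tumor-bearing mice), day 14 (8 and 8) and day 21 (3 and 3), counted as 28 biological replicates. The labels list the tumor line for healthy mice as well, so groups follow the condition at the time of analysis. All mice carried a scaffold, so no group shows tissue without an implant, and mouse age is not given in the sources used here.

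Interleukins act through receptors built from a few chains on the target cell. One chain usually gives specificity for a cytokine, while a shared chain carries the signal for several of them, through Janus kinases and STAT factors or, in the IL-1 family, through MyD88 and IRAK kinases. Some chains are decoys that bind the cytokine without signalling. Neutrophils, macrophages, T cells, mast cells and fibroblasts carry different sets of these chains, so a homogenized implant reports their sum. Fewer cells of a type and less RNA per cell cannot be told apart in such a sample.

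None of the 23 interleukin receptor assays chosen by the rule passed the test in any comparison. This held for 13 planned comparisons, which covered tumor-bearing against healthy mice, whether that effect differed from one day to another, and how each condition changed with time. It also held for 3 further comparisons between days, averaged over both conditions, that were added after the planned ones had shown no call. The smallest adjusted p among all 16 was 0.0508, for Il12rb2 from day 7 to day 21. Passing means an adjusted p under 0.05 in limma, with Benjamini-Hochberg adjustment over every assay tested in the comparison. Values are log2 relative quantities, the mean cycle of 5 reference genes minus the cycle (Cq) at which the assay's reaction crossed its threshold, so 1 unit is a 2-fold difference. Levels of different genes are not set against each other, since the efficiency of each assay is not known.

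For many chains the data bound the tumor effect. In the mean over the 3 days, 14 of 20 tested chains had a 95% interval for tumor-bearing minus healthy that lay within 2-fold in either direction, and 10 of 20 lay within 1.5-fold. Over all assays tested, 78.7% had an interval within 2-fold. The counts within 2-fold were 11 of 20 at day 7 (52.9% of all assays), 12 of 21 at day 14 (64.3%) and 9 of 20 at day 21 (47.1%). The intervals of the other chains reached past 2-fold in at least 1 direction.

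**Figure D1:**
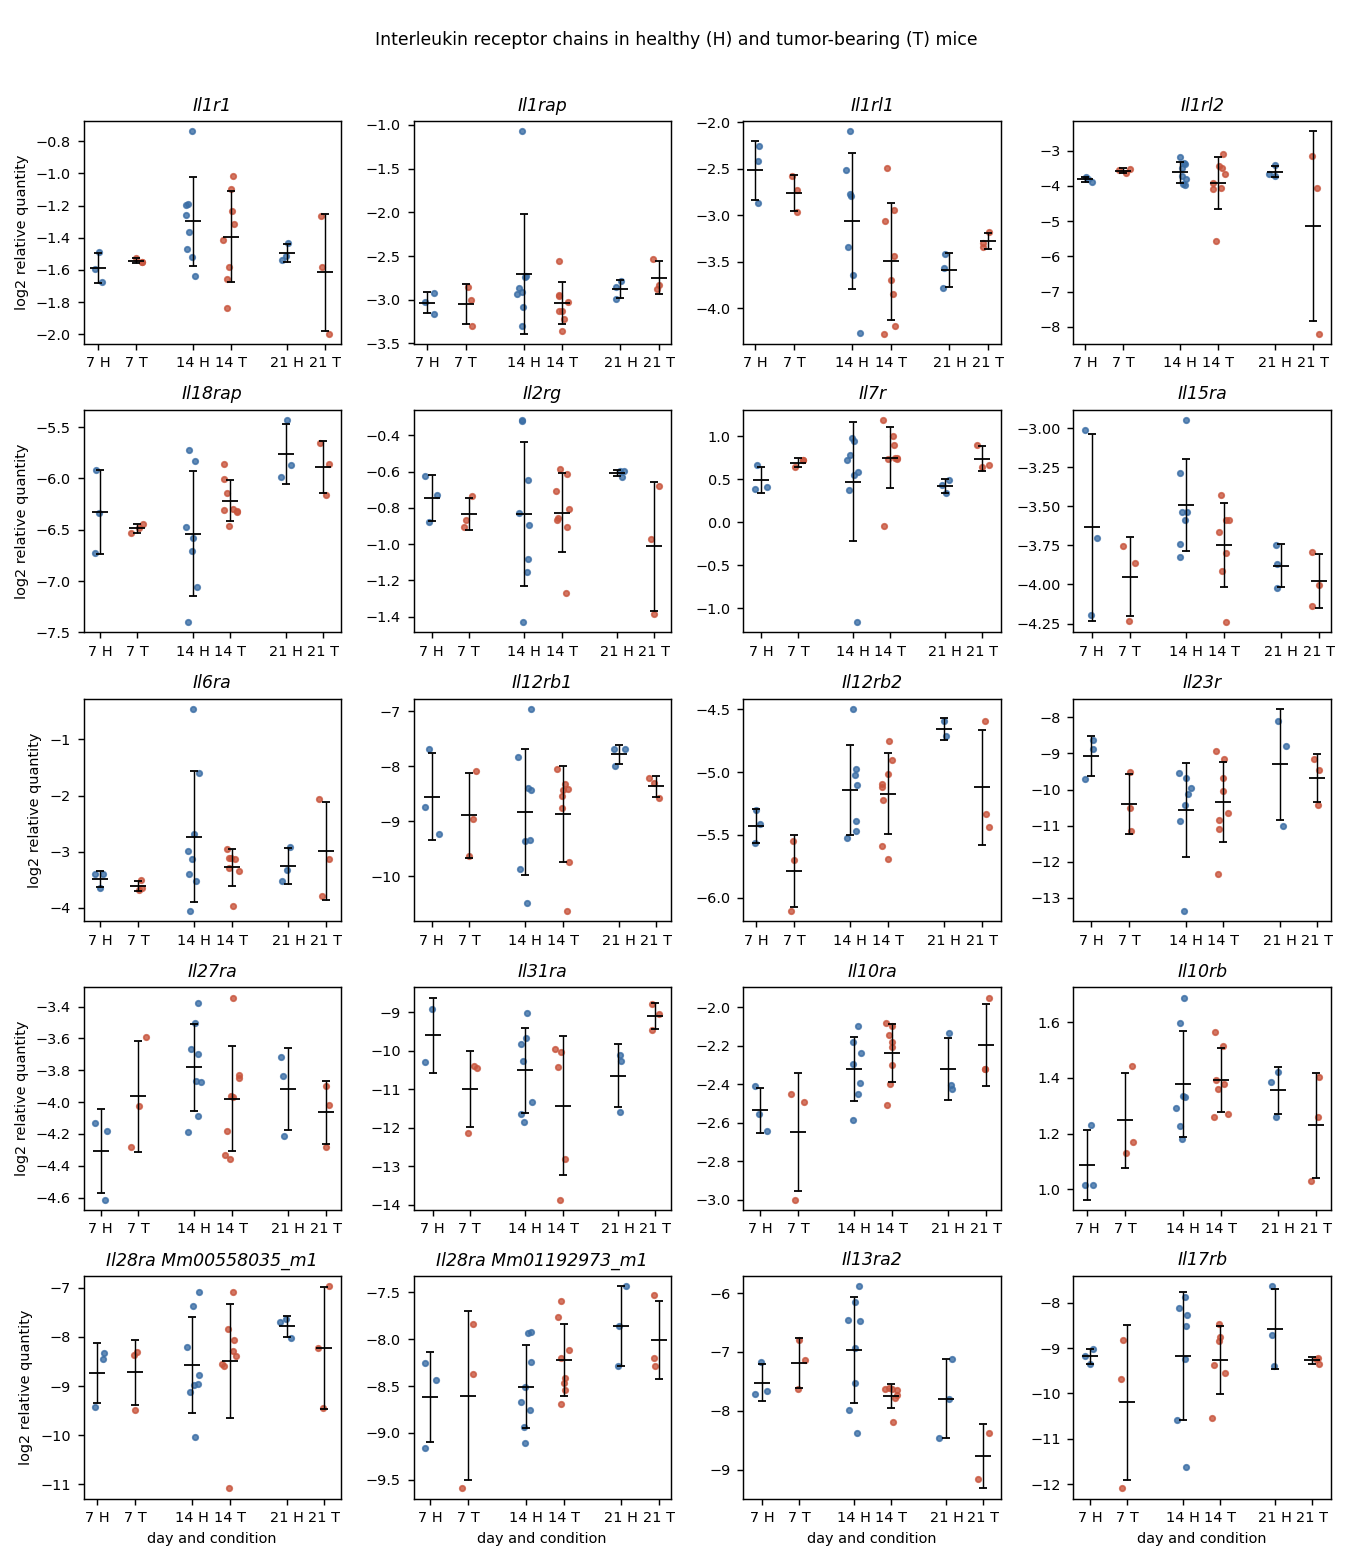
Log2 relative quantity (vertical axis, each panel with its own scale) of the 20 interleukin receptor assays with values in at least 23 of 28 samples, by day and condition (H, healthy; T, tumor-bearing). Points are mice, the bar is the mean and the whiskers are 1 SD over the mice with a value; the day 21 tumor-bearing mouse at -8.19 for Il1rl2 and the day 14 healthy mouse at -1.08 for Il1rap stand far from their groups.

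Detection split the family. Of the 644 member reactions, 558 gave a Cq. Among the assays, 9 had a value in all 28 samples, 11 in 23 to 27, and 3 in fewer than 14. Il1rapl2, a relative of the IL-1 receptors known mainly from brain, gave a Cq in 3 of 28 samples, all at day 14. Its log2 values were -10.18 in a healthy mouse and -11.89 and -0.87 in tumor-bearing mice, so 1 reading lay far above the others. Il22ra1, the signalling chain for IL-22 on epithelial cells, also gave a Cq in 3 of 28, 2 healthy mice at day 14 and 1 at day 21. Il22ra2, the soluble IL-22 decoy, was read in 13 of 28 samples. Its log2 values ran from -12.63 in a tumor-bearing mouse at day 14 to -9.86 in a tumor-bearing mouse at day 7. In tumor-bearing mice it was read in 2 of 3, 5 of 8 and 2 of 3 samples at days 7, 14 and 21, and in healthy mice in 1 of 3, 3 of 8 and 0 of 3. Il22ra2 entered the test at day 14 only among the tumor comparisons, where the difference was 0.19 ± 0.70 (adjusted p = 0.958).

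The spread between mice grew with the cycle number. Over the assays with a mean Cq under 22, the median within-group SD was 0.33 on the log2 scale, and the 8 receptor chains among them had a median of 0.35. Over those above 26 it was 0.95, and 0.97 for the 7 receptor chains there. The 5 chains between 22 and 26 had a median of 0.33, against 0.51 over all assays of that class. Il10rb had the smallest spread of the tested chains (0.15) and Il31ra the largest (1.21).

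**Figure D2:**
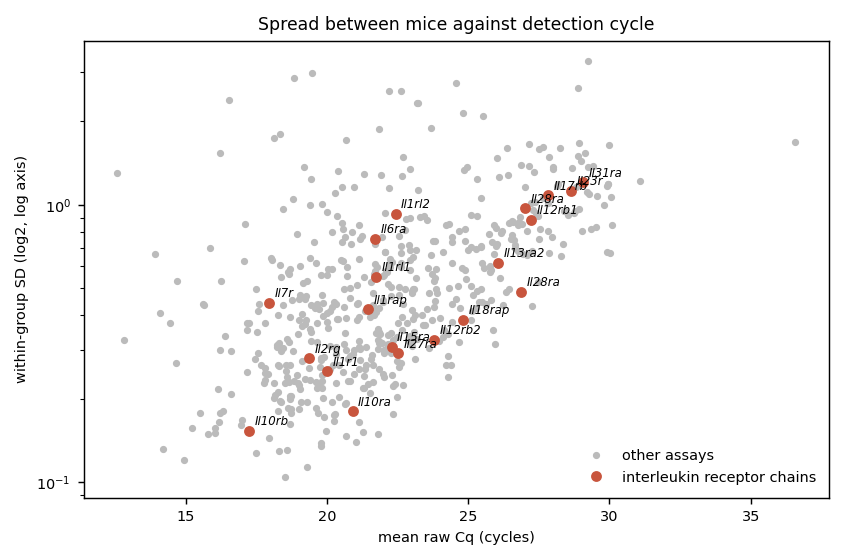
Within-group SD of the log2 relative quantity (vertical log axis) against the mean raw Cq in cycles (horizontal axis), for assays with at least 10 residual degrees of freedom. Red points are the interleukin receptor chains, from Il10rb at an SD of 0.15 to Il31ra at 1.21, and grey points are the other assays.

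At day 7, 0 of 20 receptor chains passed between tumor-bearing and healthy mice, as did 0% of the 565 assays. None of the 20 had an unadjusted p under 0.05, against 2.3% of all assays. The median difference over the chains was -0.10, beside 0.03 over all assays. Il23r, the specific chain of the IL-23 receptor of type 17 lymphocytes, had the smallest p. Its values were -9.71, -8.87 and -8.63 in the healthy mice and -11.16, -9.52 and -10.51 in the tumor-bearing mice. The groups overlapped, although in all 3 pairs of mice run on the same panel the tumor-bearing one was lower. At day 14 it was higher in 4 of 4 such pairs, and over all days in 5 of 10. The difference was -1.32 ± 0.86 (adjusted p = 0.997). Il27ra, the chain that binds IL-27 together with the shared chain Il6st, differed by 0.34 ± 0.24. Its healthy values were -4.18, -4.61 and -4.13, and its tumor-bearing values -4.02, -3.59 and -4.28, which overlap, and it was 0.15 without tumor-bearing replicate 5. Il12rb2, the signalling chain of the IL-12 receptor on T helper 1 and NK cells, read -5.57, -5.42 and -5.30 in healthy mice and -5.70, -5.55 and -6.11 in tumor-bearing mice. These groups also overlapped, with a difference of -0.36 ± 0.26, which was -0.19 without tumor-bearing replicate 6. Adjusted p was 0.997 for Il27ra and Il12rb2 as well.

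At day 14, with 8 mice per condition, 0 of 21 chains passed, where 2.38% of 588 assays did. One of the 21 had an unadjusted p under 0.05, against 10.5% of all assays. That chain was Il13ra2, the decoy receptor for IL-13. Its healthy values ran from -8.38 through a median of -6.70 to -5.89, and its 7 tumor-bearing values from -8.18 through -7.65 to -7.61. The healthy mice were widely spread and the tumor-bearing mice lay close together inside their range. The difference was -0.80 ± 0.32, or 0.573-fold with an interval of 0.36 to 0.913 (unadjusted p = 0.0213, adjusted p = 0.297). All 3 panel-matched pairs were lower in the tumor-bearing mouse.

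Il1rap, the accessory chain shared by the IL-1, IL-33 and IL-36 receptors, ran from -3.30 through -2.89 to -1.08 in healthy and from -3.36 through -3.07 to -2.56 in tumor-bearing mice at day 14. The highest healthy value came from replicate 13 alone. The difference of -0.36 ± 0.21 (adjusted p = 0.586) became -0.10 without that sample. Il18rap, the accessory chain of the IL-18 receptor, ran from -7.40 through -6.58 to -5.72 in healthy and from -6.47 through -6.30 to -5.86 in tumor-bearing mice. The ranges overlapped and the difference was 0.33 ± 0.20 (adjusted p = 0.597), or 0.21 without healthy replicate 7.

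Replicates 13 and 14 of the day 14 healthy mice stood apart from the rest, with a correlation with their group of 0.885 and 0.888 over assays, where the other samples reached 0.944 to 0.992. Replicate 13 and tumor-bearing replicate 21 also had the fewest assays with a value, 475 and 489 of 648, and gave 15 and 14 of the 23 receptor assays. Replicate 14 had 535 assays with a value, 18 of them receptor assays. Without these 3 samples 0 chains passed in the 4 tumor comparisons. The other 25 samples had values in 560 to 587 assays.

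At day 21, 0 of 20 chains passed, where 1.22% of 573 assays did, and 1 of 20 had an unadjusted p under 0.05, against 9.08%. Il1rl2, the specific chain of the IL-36 receptor, was that one. Its healthy values were -3.72, -3.67 and -3.42, and its tumor-bearing values -8.19, -4.07 and -3.16. Replicate 26, whose reaction crossed the threshold at cycle 26.6, lay far below the rest, and the mouse at -4.07 also lay below the healthy ones. The difference of -1.54 ± 0.71 (adjusted p = 0.529) was -0.02 without replicate 26. Il13ra2 read -7.12, -8.46 and -7.80 in healthy mice and -8.38 and -9.16 in the tumor-bearing mice with a value. The groups overlapped and the difference was -0.97 ± 0.54 (adjusted p = 0.674), or -0.64 without healthy replicate 23. Il2rg, the common gamma chain of the IL-2, IL-7 and IL-15 receptors, read -0.63, -0.60 and -0.60 in healthy and -1.39, -0.97 and -0.68 in tumor-bearing mice. All tumor-bearing values lay below all healthy ones, with a difference of -0.40 ± 0.23 (adjusted p = 0.674), which was -0.20 without replicate 26.

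Some chains had groups that did not overlap, as did other assays of the panel. At day 21 tumor-bearing values lay wholly above healthy ones for 3 chains (Il1rl1, Il7r and Il31ra) and wholly below for 2 (Il2rg and Il12rb1), of 20, where 18.3% of all assays had groups that did not overlap. At day 7 this was so for Il1rl2 (above) and Il31ra (below the 2 of 3 healthy mice with a value) of 20, against 9.2%. At day 14 it was so for 0 of 21, against 0.68%. None of these passed the test.

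As the mean over days, 0 of 20 chains passed, where 2.5% of 559 assays did, and 0 had an unadjusted p under 0.05, against 8.77%. Il12rb2 came nearest, with -0.30 ± 0.14 (unadjusted p = 0.0503, adjusted p = 0.546), and was lower in the tumor-bearing mouse in 7 of 8 panel-matched pairs. For Il13ra2 the difference was -0.48 ± 0.27 (adjusted p = 0.62), and 4 of 8 pairs were lower. Il15ra, the chain that presents IL-15 to neighbouring cells, had a difference of -0.22 ± 0.13 (adjusted p = 0.644), or -0.12 without day 7 healthy replicate 2, and 7 of 9 pairs were lower. Il7r, which pairs with the common gamma chain to keep T cells alive, was higher in 8 of 10 pairs, with 0.28 ± 0.18 (adjusted p = 0.692). Its largest pair difference, 2.35 at day 14, was that of healthy replicate 13. This mouse read -1.16, where the other day 14 healthy mice ran from 0.38 to 0.98.

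**Figure D3:**
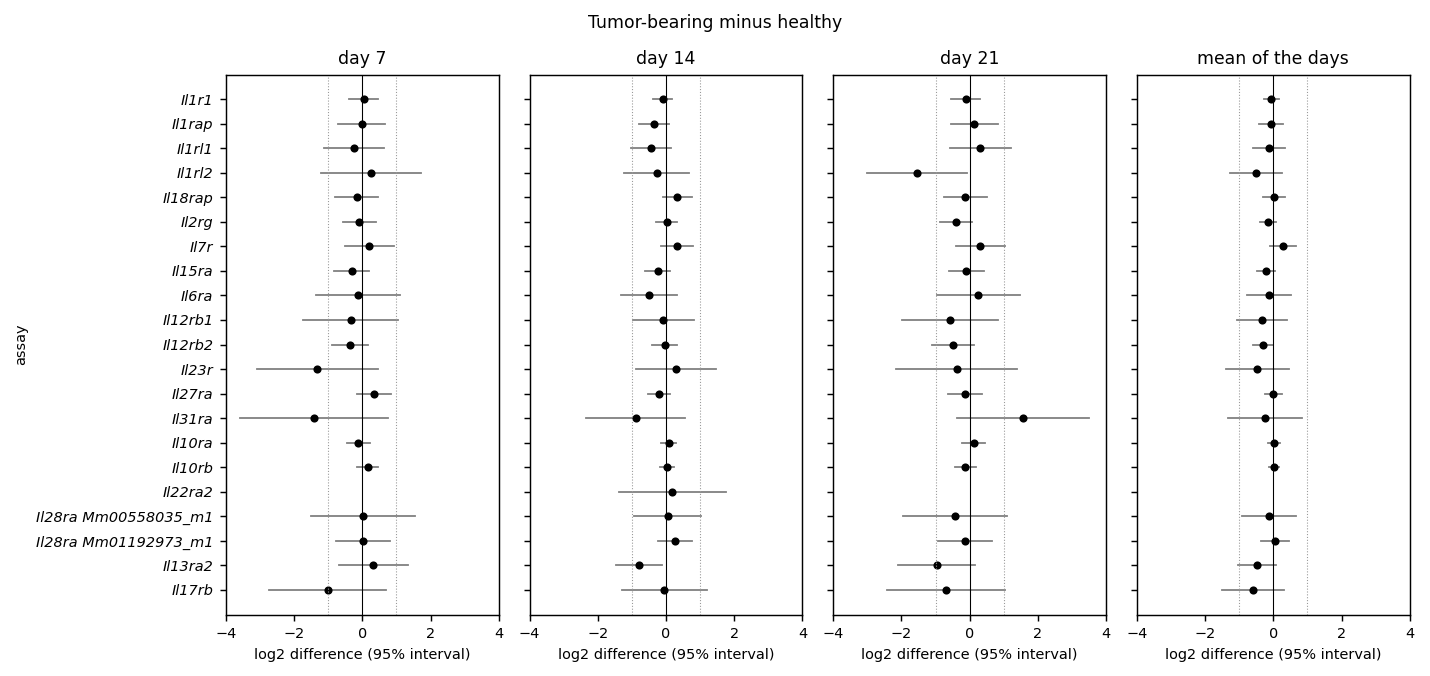
Log2 difference of tumor-bearing minus healthy mice (horizontal axis, with 95% intervals) for each tested receptor assay, with 1 panel per day and a last panel for the average of the 3 days. Dotted lines mark 2-fold; no chain passed the adjusted threshold, and 14 of the 20 intervals in the last panel lie between the dotted lines.

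The narrowest bounds on the mean tumor effect were those of the IL-10 receptor. Il10ra, its ligand-binding chain on leukocytes, differed by 0.03 ± 0.08 and its interval ran from 0.904-fold to 1.15-fold. Il10rb, the second chain, which the IL-22 and interferon lambda receptors also use, differed by 0.02 ± 0.08, from 0.907-fold to 1.13-fold. Il1r1, the signalling receptor for IL-1 alpha and beta, had an interval of 0.825-fold to 1.12-fold. Il27ra had one of 0.837-fold to 1.20-fold. The widest were those of Il31ra, the IL-31 chain linked to itch (0.397-fold to 1.78-fold), and of Il23r (0.382-fold to 1.37-fold).

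The other chains of each family gave no call either. Il6ra, the ligand-binding chain for IL-6, ran from -4.06 through -3.06 to -0.45 in day 14 healthy mice and from -3.96 through -3.14 to -2.96 in tumor-bearing ones, with a mean effect over days of -0.12 ± 0.31. Healthy replicates 7 and 14 lay apart, at -0.45 and -1.61. Il12rb1, the chain shared by the IL-12 and IL-23 receptors, differed by -0.34 ± 0.35 over the days. Il1rl1, the IL-33 receptor of mast cells, type 2 lymphoid cells and regulatory T cells, differed by -0.12 ± 0.22 over the days. Its direction was not the same on all days. In panel-matched pairs the tumor-bearing mouse was lower in 3 of 3 at day 7 and 3 of 3 at day 14. It was higher in 3 of 3 at day 21. Il17rb, the IL-25 receptor chain, differed by -0.59 ± 0.44 over the days.

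Il28ra, the specific chain of the interferon lambda receptor (current symbol Ifnlr1), was read by a pair of assays. The first minus the second averaged -0.13 with an SD of 0.76 over 28 samples, and they differed by more than 2-fold in 5. The mean tumor effect was -0.12 ± 0.38 by the first and 0.05 ± 0.20 by the second assay.

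The tumor effect did not differ between days for any chain past the threshold: 0 of 20 passed in each of the 3 comparisons of days, as did 0% of all assays. At an unadjusted p under 0.05 there were 0 chains from day 7 to 14 (3.72% of all assays), 1 from day 14 to 21 (5.6%) and 1 from day 7 to 21 (3.93%), Il31ra both times. It read -8.91 and -10.29 in healthy and -12.13, -10.44 and -10.40 in tumor-bearing mice at day 7, and -10.10, -11.58 and -10.26 against -8.78, -9.45 and -9.04 at day 21. At day 7 only 2 of 3 healthy mice had a value, and the tumor-bearing mice were below both. At day 21 the tumor-bearing mice were above all 3 healthy mice. The difference of the effect was 2.97 ± 1.39 (unadjusted p = 0.0456, adjusted p = 1). These reactions crossed the threshold at a mean cycle of 27.7 to 29.8, where the spread is wide.

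Within healthy mice, 0 chains passed from day 7 to 14 (0% of all assays), from day 14 to 21 (0.346%) or from day 7 to 21 (0%). Within tumor-bearing mice, 0 passed from day 7 to 14 (0.175%), from day 14 to 21 (0%) or from day 7 to 21 (0.529%). At an unadjusted p under 0.05 the counts in the same order were 2, 1 and 2 of 20 in healthy mice, beside 12.9%, 16.1% and 10.0% of all assays. In tumor-bearing mice they were 2, 2 and 4 of 21, beside 8.58%, 10.3% and 8.99%. With both conditions averaged, in the comparisons added afterwards, 0 of 20 passed from day 7 to 14, where 2.66% of all assays did, 0 from day 14 to 21 (0.876%) and 0 from day 7 to 21 (2.86%). At an unadjusted p under 0.05 there were 4 of 20 chains from day 7 to 14 (18.6% of all assays), 2 of 20 from day 14 to 21 (19.6%) and 6 of 20 from day 7 to 21 (16.8%). In the last comparison these were Il12rb2, Il10ra, Il18rap, the second Il28ra assay, Il1rl1 and Il13ra2, which are described next without a call.

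Il12rb2 was -5.43 ± 0.13 (SD, n = 3) in healthy mice at day 7 and -5.14 ± 0.36 (n = 7) at day 14. At day 21 the 2 healthy mice with a value read -4.72 and -4.60. In tumor-bearing mice it was -5.79 ± 0.29 (n = 3), -5.17 ± 0.32 (n = 8) and -5.12 ± 0.46 (n = 3). Means were thus highest at day 21 in both conditions. In tumor-bearing mice the day 14 mean was close to it, and the median was lower at day 21 (-5.34) than at day 14 (-5.11). The values of day 7 and day 21 did not overlap in either condition. For this chain and those below, the share of all assays without overlap between days was not counted. The chains were also picked by their p in this same comparison. From day 7 to 21 the difference was 0.72 ± 0.20, or 1.65-fold with an interval of 1.24 to 2.20, and missed the threshold at an adjusted p of 0.0508. The comparison was refitted in 39 alternative settings, and Il12rb2 passed in 9, 7 of which leave out 1 sample. Only the fits without tumor-bearing replicate 27 or 28 left out a mouse of the days compared. The rest left out day 14 mice alone, and their difference was 0.71 to 0.73. Over all alternatives the adjusted p of Il12rb2 ran from 0.03 to 0.965. It was 0.109, a miss, when cycles were centred on each sample's median in place of the reference genes.

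Il18rap was -6.33 ± 0.41 and -6.49 ± 0.04 (SD, n = 3 each) in healthy and tumor-bearing mice at day 7, and -5.76 ± 0.29 and -5.89 ± 0.26 (n = 3 each) at day 21. The 2 days overlapped in healthy mice and not in tumor-bearing mice, and the difference was 0.59 ± 0.22 (adjusted p = 0.193). Il10ra differed by 0.33 ± 0.12 (adjusted p = 0.17) over the same days, and by 0.30 ± 0.10 (adjusted p = 0.122) already from day 7 to 14.

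A pair of chains had lower values later. Il1rl1 was -2.52 ± 0.32 in healthy and -2.76 ± 0.19 in tumor-bearing mice at day 7 (n = 3 each), and -3.59 ± 0.18 and -3.28 ± 0.09 at day 21 (n = 3 each). The day 21 values lay below those of day 7 in both conditions, and the difference was -0.78 ± 0.31 (adjusted p = 0.208). In a fit on the day 7 and 21 samples alone it was -0.80 (adjusted p = 0.00833). That fit keeps the panel term only where its correlation can be estimated. Il13ra2 differed by -0.89 ± 0.37 (adjusted p = 0.231) from day 7 to 21 and by -0.89 ± 0.32 (adjusted p = 0.131) from day 14 to 21.

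**Figure D4:**
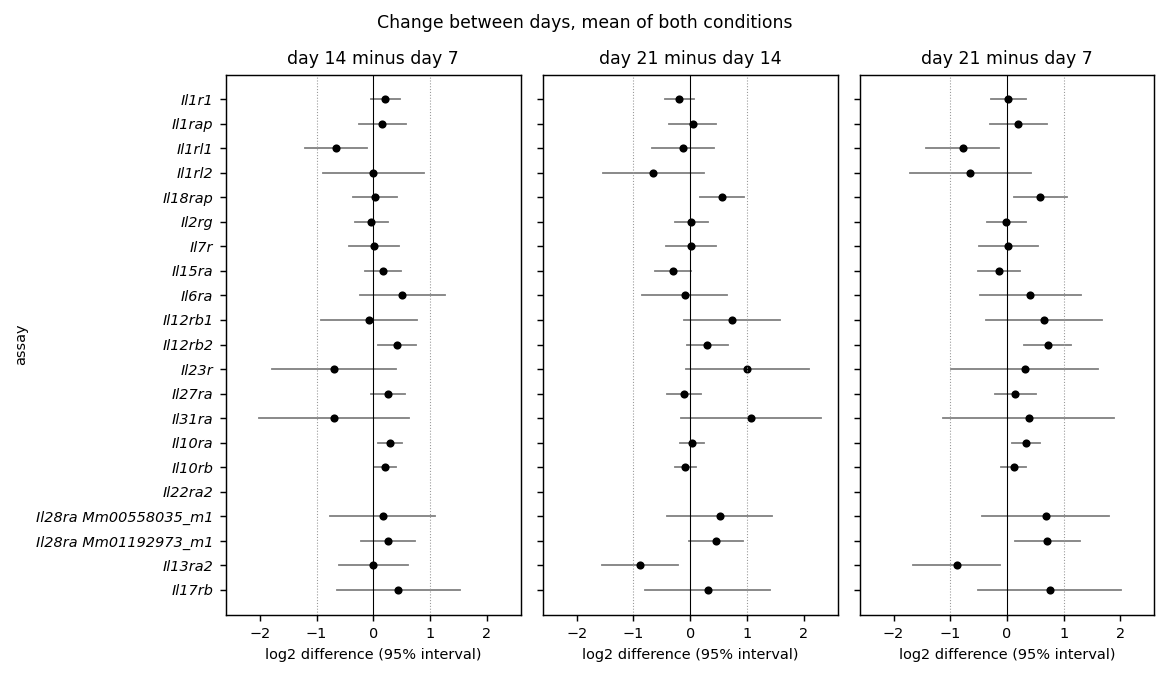
Log2 difference between days (horizontal axis, with 95% intervals), averaged over healthy and tumor-bearing mice, for the 20 tested receptor assays. Dotted lines mark 2-fold; Il12rb2 (0.72) lies above 0 and Il1rl1 (-0.78) and Il13ra2 (-0.89) below it from day 7 to 21, and none passed the adjusted threshold.

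Il1r1, Il1rl2, Il1rl1 and Il18rap lie next to each other on mouse chromosome 1, in the order Il1r2, Il1r1, Il1rl2, Il1rl1, Il18r1, Il18rap in RefSeq (GRCm38.p6). From day 7 to 21 the differences of these neighbours were 0.02 ± 0.15 for Il1r1 (-0.10 with cycles centred on each sample's median), -0.65 ± 0.52 for Il1rl2, -0.78 ± 0.31 for Il1rl1 and 0.59 ± 0.22 for Il18rap, and none passed. Il1r2 and Il18r1 were not analysed here.

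The partners of these chains gave few calls. Of the shared receptor subunits outside the family name, 0 of 6 assays (Il6st, Lifr, Csf2rb, Ifngr1, Ifngr2) passed in the 4 tumor comparisons, and 0 had an unadjusted p under 0.05. The median of the 6 in the mean of the days was 0.05, beside -0.05 over all assays. Of the JAK-STAT genes, 0 of 10 passed, with a median of -0.03 in the mean of the days. There 1 of 10 had an unadjusted p under 0.05, beside 8.77% of all assays. Of the IL-1 receptor adaptors and kinases, 0 of 8 passed with tumor, and 1, Irak2, rose from day 7 to 14 by 0.37 ± 0.08 (adjusted p = 0.0397) and to day 21 by 0.36 ± 0.10 (adjusted p = 0.0479).

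Among ligands, 0 of the tested IL-1, common gamma chain, IL-6 and IL-12, IL-10 and IL-17 family assays passed in the tumor comparisons. In the mean of the days, 5 of the 13 IL-6 and IL-12 family assays had an unadjusted p under 0.05, and 0 of 7 in the IL-1 family. The share over all assays was 8.77%. All 5 were lower in tumor-bearing mice in the mean of the days: both Il12b assays, 1 of the 2 Il23a assays, Il27 and Osm. Osm differed by -0.41 ± 0.14 (adjusted p = 0.181). The IL-27 gene, ligand of Il27ra, differed by -1.44 ± 0.42 at day 7 (adjusted p = 0.715). At day 14 it was higher in tumor-bearing mice, by 0.42 ± 0.27 (adjusted p = 0.621). At day 21 it differed by -0.71 ± 0.47 (adjusted p = 0.726). The IL-23 subunit gene Il23a differed by 0.51 ± 0.58 and 0.49 ± 0.70 at day 7 by its 2 assays (adjusted p = 0.997 each). In the mean of the days the same assays gave -0.10 ± 0.29 and -0.84 ± 0.37 (adjusted p = 0.932 and 0.437). The shared IL-12 and IL-23 subunit gene Il12b, which engages Il12rb1, differed by -0.58 ± 0.27 and -0.85 ± 0.33 by its 2 assays in the mean of the days (adjusted p = 0.521 and 0.348). The other IL-12 subunit gene Il12a, which engages Il12rb2, differed by 0.55 ± 0.52 and -0.61 ± 0.38 by its 2 assays (adjusted p = 0.819 and 0.685). The IL-33 gene, ligand of Il1rl1, differed by 0.07 ± 0.12 (adjusted p = 0.911) with tumor and by 0.18 ± 0.17 (adjusted p = 0.681) from day 7 to 21. The IL-18 gene differed by 0.14 ± 0.18 (adjusted p = 0.766) from day 7 to 21.

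Markers of the cells that carry these chains moved unequally. Neutrophil markers passed as higher in tumor-bearing mice in 9 of 9 tested assays at day 14, 5 of 10 at day 21 and 8 of 9 in the mean of the days, among them the granule gene Camp (4.81 ± 0.73 at day 14, adjusted p = 0.000403). Il8rb, an interleukin receptor symbol that the rule left out, was also among them (1.39 ± 0.26 at day 14, adjusted p = 0.0034). In the mean of the days it differed by 0.77 ± 0.20 (adjusted p = 0.0441). The summed relative quantity of the neutrophil markers ran from 0.432 to 2.17 in healthy and from 1.21 to 9.92 in tumor-bearing mice at day 14. Of the T cell markers (Cd4, Cd28, Ctla4, Foxp3, Icos), 0 of 5 passed with tumor or time. With tumor in the mean of the days, 2 of 5 had an unadjusted p under 0.05 (8.77% of all assays). From day 7 to 21 it was 1 of 5 (16.8% of all assays). The median difference of the 5 was -0.61 in the mean of the days. From day 7 to 21 it was 0.64, where Icos alone of the 5 was below 0 (-0.11 ± 0.42). Their sum ran from 0.0471 to 0.0519 at day 7 and from 0.0848 to 0.0887 at day 21 in healthy mice, and from 0.0261 to 0.0444 and from 0.0146 to 0.0714 in tumor-bearing mice. Of the dendritic cell markers, 1 of 4, the homing receptor gene Ccr7, was lower with tumor in the mean of the days (-0.81 ± 0.15, adjusted p = 0.00238). Of 2 mast cell and basophil markers and 6 monocyte and macrophage markers, 0 passed, and 0 had an unadjusted p under 0.05 in the mean of the days. The part of the cell types in the values of the receptor chains was not tested.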

How the data were processed

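RNA from scaffolds was reverse transcribed and run on a TaqMan OpenArray Mouse Inflammation Panel, per the labels' protocols; the labels name 7 panels, of which 5 hold both conditions. Per the file headers the authors deposited raw quantification cycles and normalized ratios on a linear scale; how cycles were called is not given in the sources used here. From the values, the log2 normalized ratio equals the mean cycle of 5 of the 16 assays marked as references minus the assay's cycle; these references are not named here. The authors' deposited fold ratios of tumor-bearing over healthy mice were not tested. Reactions without a cycle were left missing.

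An assay entered a test if 1 group had values in at least 50% of its samples and each group compared had at least 2. The log2 ratios were fitted with limma 3.58.1 (R 4.3.3, statmod 1.5.0), 1 mean per group over 28 samples, with the panel as a random block (correlation 0.054); ± after a difference is its standard error. The fit was tested on simulated data. The series' design text counts biological replicates, 3 to 8 per group, and their number limits the precision. Replicate numbers run through all groups and pair no samples; mice run on the same panel are set side by side as panel-matched pairs.

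The family and the gene lists were proposed with earlier results of these data known, although the rule for members reads symbols only. By rule, all members are accounted for, the 3 with the smallest p in each tumor comparison are described in full, and ligands and list members past the threshold are named. Members with an unadjusted p under 0.05 between days, Il7r, Il6ra, Il31ra and the marker and neighbour values were named after their values were seen. Alternatives covered the panel term, panels D and G (1 condition each), the scaling, missing reactions, filters, the spread and each sample left out. A planned comparison of Il1r2 with Il1r1 was not run, since Il1r2 was not analysed here. Of the 23 assays, 21 matched a RefSeq gene by transcript.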

Additional observations from a re-analysis of the deposited data

Results flagged for a closer look

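In 9 of 41 groups of 4 to 10 values, 1 mouse lay further from its group than Dixon's 95% criterion allows. Chance alone gives about 1 in 20 for independent groups of normal values. These groups are the same mice read by different assays, so an excess over that rate was not tested. All 9 are day 14 mice, since the groups of 3 were not tested. In healthy replicate 13, Il1rap was -1.08 where the others ran from -3.30 to -2.72, Il7r was -1.16 where they ran from 0.38 to 0.98, and Il23r was -13.36 where they ran from -10.86 to -9.55. These 3 came from a sample with 475 assays with a value. In tumor-bearing replicate 22, Il7r was -0.036 (others 0.73 to 1.19) and Il6ra was -3.96 (others -3.34 to -2.96). The remaining values were all low ones in tumor-bearing mice: Il1rl2 was -5.55 in replicate 15 (others -4.09 to -3.11), Il2rg was -1.27 in replicate 18 (others -0.91 to -0.58), the first Il28ra assay was -11.08 in replicate 19 (others -8.59 to -7.08), and Il13ra2 was -8.18 in replicate 20 (others -7.78 to -7.61).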

How the results depend on the processing

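Each comparison was refitted under 39 alternatives: 10 settings, 28 fits without 1 sample, and 1 without the 3 day 14 samples that stand apart, chosen after seeing the data. The count of receptor chains past the threshold stayed at 0 in the 39 alternatives of every tumor comparison and of every difference between days of the tumor effect. In healthy mice from day 14 to 21 it was 0 to 1 when 1 sample was left out: Il18rap passed without day 14 healthy replicate 10. From day 7 to 21 averaged over conditions it was 0 to 1 when 1 sample was left out, 1 without panels D and G, 1 in the fit on the groups compared, and 1 without the 3 samples that stand apart. From day 7 to 14 and from day 14 to 21 it was also 1 without those 3 samples (Il10ra, adjusted p = 0.042; Il13ra2, adjusted p = 0.0453). Of 905 alternatives of 24 named results, 888 kept their direction and side of the threshold, 12 passed it, and 5 reversed. All 5 reversals came from setting missing reactions to the largest cycle (39.699): Il12rb2 became 2.41 with tumor in the mean of the days, -0.34 from day 7 to 14 and -1.41 from day 7 to 21, Il10ra -0.87 and Il10rb -2.55 from day 7 to 14. That setting places a missing reaction far below the measured ones. Il12rb2 from day 7 to 21 ranged from an adjusted p of 0.03 to 0.965 over its alternatives. Centring raw cycles on each sample's median moved the median of all assays from -0.08 to 0.03 at day 14 and from 0.10 to -0.02 from day 7 to 21. Under it 25 of 324 receptor chain results changed sign, all of a size of at most 0.10, among them Il1r1 with tumor in the mean of the days (-0.06 to 0.02) and from day 7 to 21 (0.02 to -0.10), and 0 passed the threshold. No paired analysis was possible by replicate number because groups share none; the panel entered as a block. In the fit on the groups compared, the panel term was left out where its correlation could not be estimated.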
